A study of Mus musculus with 26 samples.

Results

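Gene expression in the lactating mammary gland was compared between an Advanced Intercross Line (AIL) and CBA/CaH, one of its 2 parental strains. The arrays were chosen by their labels alone. They are the 10 lactation arrays of the AIL and the 3 lactation arrays of CBA/CaH, 13 of the 26 arrays of the series. The AIL mice were generation 14 of a cross of CBA/CaH with QSi5 and carried the sample codes AC1 to AC5 and AQ1 to AQ5, whose meaning the labels do not give. AIL, CBA/CaH and QSi5 glands (10, 3 and 3 arrays) were collected on day 9 of lactation, and the QSi5 arrays entered the same model. Pregnancy day 12 glands of QSi5 and CBA/CaH (5 arrays each, other mice) served to find probe sets that differ between the parental strains. Each array was labelled as 1 mouse, with no treatment and no age given. The labels give no genotype for any AIL mouse and do not say whether mice were littermates. The inguinal gland was sampled whole.

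At this stage the alveolar epithelium secretes milk. It makes caseins and whey proteins, joins glucose and galactose into lactose, and packs newly made triglyceride into droplets that leave the cell wrapped in its own membrane. Prolactin drives this program through the transcription factor STAT5, and fat cells, fibroblasts, vessels and immune cells surround the alveoli. In an advanced intercross, many generations of random mating shuffle the parental chromosomes, so at a given gene a mouse can carry either parental allele or both.

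The tissue label held. The milk protein genes Csn1s1, Csn2, Csn3 and Wap lay between 14.61 and 15.11 on the log2 scale on all 13 arrays, near the top of the table at 15.1. Such values can no longer follow a difference upwards. Markers of skeletal muscle marked 1 array: Tnnc2, a troponin subunit, was 11.80 on AIL AC1, against 4.07 to 4.70 on the other 9 AIL arrays and 4.15 to 4.24 on the CBA/CaH arrays. The CBA/CaH array 1 stood apart from the other CBA/CaH arrays for genes of milk stasis and lipid synthesis. Igfbp5 was 11.31, 7.12 and 8.10 on the CBA/CaH arrays 1, 2 and 3, Stat3 11.19, 8.75 and 8.87, Cd14 12.57, 8.73 and 9.70, and Fasn 11.85, 12.88 and 12.98. The QSi5 array 2 stood apart for immune genes. Lymph node stroma genes had a mean level of 7.48, 8.66 and 7.27 on the QSi5 arrays 1, 2 and 3. For B and plasma cell genes it was 6.24, 7.34 and 5.80.

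The AIL arrays also stood apart from both inbred groups in a measure that does not come from the mice. Poly-A control transcripts are added in known amounts before labelling, and a larger log2 signal of their 3′ minus their 5′ probe sets means relatively less signal at the 5′ end. This value was 0.85 to 1.03 (median 0.93) on the AIL arrays, against 1.85 to 2.34 on the CBA/CaH arrays and 2.09 to 2.31 on the QSi5 arrays. For Gapdh the same measure was 0.54 to 0.80 in AIL, against 1.12 to 2.02 in CBA/CaH, with QSi5 at 1.48 to 1.62, and for Actb it was 0.87 to 1.32 in AIL, against 1.54 to 2.58 in CBA/CaH, with QSi5 at 1.67 to 1.90. The ranges of AIL and inbred arrays did not overlap in any of the 3. The first principal component of the lactation arrays (46.3% of the variance) had all AIL arrays on one side and all inbred arrays on the other. The set of arrays and the line therefore cannot be told apart in anything that separates AIL from both inbred strains. For this reason QSi5 values stand beside most of the CBA/CaH values listed per array.

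**Figure D1:**
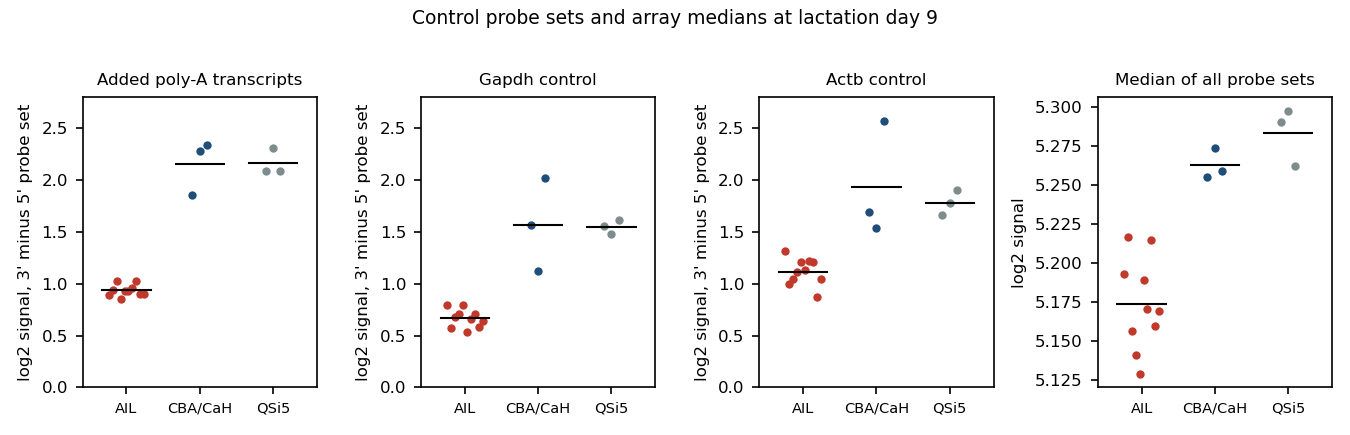
Control measures of the 16 lactation arrays, with AIL left, CBA/CaH in the middle and QSi5 right. Points are arrays and black lines are group means; the first 3 panels show the log2 signal of the 3′ probe set minus that of the 5′ probe set, the last the median log2 signal of all probe sets on an axis that does not start at 0. AIL values of the added poly-A transcripts lie between 0.85 and 1.03, below every inbred array.

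Of 45037 probe sets, 6707 were higher in AIL than in CBA/CaH (14.9%) and 8040 were lower (17.9%), at a limma adjusted p under 0.05. Differences of at least 1 log2 unit ran mostly one way, with 1496 probe sets higher and 123 lower. Over all probe sets AIL minus CBA/CaH had a median of -0.07, and with array medians set equal 8227 were higher and 4829 lower, so the share of higher calls was 63% in place of 45.5%. It was 60.5% (6215 higher, 4056 lower) without probe sets whose mean level was under 5. Without the CBA/CaH array 1 the counts were 6046 and 6653, and without AC1 and the QSi5 array 2 they were 6772 and 7991. With the Gapdh value as a covariate 557 were higher and 265 lower, and with the poly-A value 50 and 160. Counted as 18193 genes by the brightest probe set of each, 3335 were higher (18.3%) and 3025 lower (16.6%).

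Most of these calls recurred against the other parent. AIL minus QSi5 gave 16570 called probe sets (36.8%) and AIL minus the mean of both parents 20833 (46.3%), against 201 (0.446%) for QSi5 minus CBA/CaH on the same model. These comparisons share arrays and differ in precision. They set 10 arrays against 3, 10 against 3 and 3, and 3 against 3. The counts of calls therefore do not compare the sizes of the differences. Of the 3335 higher genes, 2453 were also higher against QSi5, 874 were not called there and 8 were lower. Of the 3025 lower genes, 2063 were also lower against QSi5, 957 were not called and 5 were higher. Ranges of AIL and CBA/CaH arrays did not overlap for 3918 genes (21.5%), 2095 of them higher and 1823 lower.

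Some genes, by their brightest probe set, set AIL apart from CBA/CaH with no QSi5 call beside it. Among them Mt2 had the largest difference, and Mt1, another metallothionein, fell too. Metallothioneins are small cysteine-rich proteins that bind zinc and copper, and their genes are switched on by metals, glucocorticoids and stress. Mt2 was 6.89 to 8.59 (median 7.74) on the AIL arrays, against 12.31, 9.59 and 11.01 on the CBA/CaH arrays and 6.60, 6.10 and 7.56 on the QSi5 arrays. Every AIL array lay below every CBA/CaH array, and Mt2 fell by 3.14 (SE 0.43, adjusted p = 2.5e-05), the lowest difference of all genes named by size. Mt1 was 10.73 to 11.72 (median 11.35) on the AIL arrays, against 13.95, 12.65 and 12.81 on the CBA/CaH arrays and 11.21, 10.48 and 11.15 on the QSi5 arrays. It fell by 1.82 (SE 0.23, adjusted p = 8.38e-06), again with no overlap. Against QSi5 the AIL differences were 1.08 for Mt2 (adjusted p = 0.0572) and 0.37 for Mt1 (adjusted p = 0.207). Without the CBA/CaH array 1 the differences from CBA/CaH were -2.47 and -1.41. With the Gapdh covariate neither was called (Mt2 -1.76, adjusted p = 0.348; Mt1 -1.55, adjusted p = 0.125). At pregnancy QSi5 minus CBA/CaH was 1.41 for Mt2 (adjusted p = 0.102) and 0.64 for Mt1 (adjusted p = 0.36).

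The 2 genes are neighbours on mouse chromosome 8, and the 250 bases before each start are shown because the genes moved together. Capitals mark matches to the core of the metal response element, which the zinc-sensing factor MTF1 binds, searched as TGCACNC and TGCGCNC on both strands.
Mt2 (chr8:94172368-94172617, plus strand): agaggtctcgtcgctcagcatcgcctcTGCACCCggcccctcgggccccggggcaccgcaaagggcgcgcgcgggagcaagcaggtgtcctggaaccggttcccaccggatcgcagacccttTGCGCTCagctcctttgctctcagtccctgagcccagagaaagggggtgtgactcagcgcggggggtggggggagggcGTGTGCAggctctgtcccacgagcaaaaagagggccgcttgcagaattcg
Mt1 (chr8:94178839-94179088, plus strand): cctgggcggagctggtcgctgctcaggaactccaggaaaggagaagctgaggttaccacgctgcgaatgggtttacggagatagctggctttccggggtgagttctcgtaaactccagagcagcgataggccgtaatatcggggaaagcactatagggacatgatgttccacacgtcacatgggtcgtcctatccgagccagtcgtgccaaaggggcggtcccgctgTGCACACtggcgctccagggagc
The sequences are RefSeq's, on GRCm38.p6. The Mt2 window held 3 matches and the Mt1 window 1, while 21.4% of 32851 mouse promoter windows of that length held at least 1 match and 5.17% at least 2. A match describes the letters in the window and was not tested as a binding site. Each window follows the annotated start, and bases outside it were not searched. The counts therefore do not give the number of such elements at either gene.

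Pigo and Retsat were higher in AIL, at the QSi5 level. Pigo, an enzyme that adds ethanolamine phosphate to glycosylphosphatidylinositol anchors, was 7.70 to 8.68 (median 8.32) in AIL, against 6.07, 6.23 and 6.0 in CBA/CaH and 8.18, 8.09 and 8.31 in QSi5. It rose by 2.16 (SE 0.15, adjusted p = 1.01e-08), and was called between the parental strains at pregnancy too (QSi5 minus CBA/CaH 1.45, adjusted p = 0.0108). Retsat, the retinol saturase, was 8.62 to 10.83 (median 10.21) in AIL, against 7.78, 8.11 and 7.87 in CBA/CaH and 10.38, 9.96 and 10.23 in QSi5. It rose by 2.20 (SE 0.30, adjusted p = 2e-05), with a pregnancy strain difference of 1.58 (adjusted p = 0.0359). Array AC4, at 8.62, lay nearer the CBA/CaH arrays and the other 9 nearer the QSi5 arrays. Pigo was still called with the Gapdh covariate (2.11, adjusted p = 0.00505), and Retsat was not (1.58, adjusted p = 0.227). Over 33 alternatives, which include other choices of a gene's probe set, the smallest difference of Pigo was 0.92.

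Several genes of milk secretion, immunity and complement had the same order. Muc1, an apical mucin of the secretory cell, was 11.69 to 12.24 (median 11.91) in AIL, against 10.78, 10.62 and 10.88 in CBA/CaH and 11.74, 11.48 and 11.69 in QSi5. It rose by 1.18 (SE 0.12, adjusted p = 8.97e-07), with a pregnancy strain difference of 1.92 (adjusted p = 0.0012). Xdh, which links the membrane to the lipid droplet coat, rose by 0.68 (SE 0.13, adjusted p = 0.000548) and differed from QSi5 by 0.09. Scd1, a desaturase of milk fat synthesis, rose by 1.11 (SE 0.14, adjusted p = 1.43e-05) and differed from QSi5 by 0.22. Iigp1, an interferon-induced GTPase of cell-autonomous defence, was 10.10 to 11.20 (median 10.65) in AIL, against 9.06, 9.20 and 9.31 in CBA/CaH and 10.86, 10.48 and 10.97 in QSi5. It rose by 1.46 (SE 0.19, adjusted p = 1.2e-05). C1qa, a chain of complement C1q made by macrophages, rose by 1.35 (SE 0.22, adjusted p = 0.000115) and differed from QSi5 by -0.04. None of Xdh, Scd1, Iigp1 and C1qa was called for strain at pregnancy (adjusted p = 0.515 to 0.903).

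In other genes some AIL arrays lay near one parent and some near the other. Capg, an actin-capping protein, was 5.08, 5.34 and 5.37 on AC2, AQ5 and AQ2 and 6.62 to 7.33 on the other 7 AIL arrays, against 7.82, 7.78 and 7.50 in CBA/CaH and 4.85, 5.37 and 5.07 in QSi5. It fell by 1.20 (SE 0.41, adjusted p = 0.0303), a call lost without any 1 of the 3 CBA/CaH arrays (adjusted p = 0.0669 to 0.0917). Tnfsf13os, an antisense transcript of a gene for a B cell survival factor, was 5.52 and 6.23 on AQ2 and AQ1 and 7.50 to 8.62 on the other 8 AIL arrays, against 5.73, 5.26 and 6.26 in CBA/CaH and 8.73, 8.73 and 8.54 in QSi5. It rose by 1.85 (SE 0.47, adjusted p = 0.00514) and had the highest pregnancy strain difference of the genes named, 4.11. For both genes the low and the high AIL arrays lay near opposite parents.

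H2-D1, a class I antigen-presenting molecule, was 9.12 to 9.43 on 4 AIL arrays (AC1, AC2, AC3 and AQ5) and 10.13 to 10.61 on the other 6, against 8.59, 8.38 and 8.62 in CBA/CaH and 11.16, 11.48 and 11.20 in QSi5. All AIL arrays lay between the parents. Class I genes have near-identical copies, so which copy was measured is uncertain. H2-D1 rose by 1.41 against CBA/CaH (SE 0.30, adjusted p = 0.00127) and fell by 1.33 against QSi5 (adjusted p = 0.00185). The call against CBA/CaH was lost with the gene's most variable probe set. Grb10, an adaptor that restrains insulin receptor signalling, was 5.21 to 6.92 (median 6.48) in AIL, against 7.50, 7.41 and 7.08 in CBA/CaH and 5.43, 5.40 and 5.68 in QSi5, and fell by 1.07 (SE 0.26, adjusted p = 0.00373). Tmem267, a membrane protein, was 3.50 to 7.39 (median 6.19) in AIL, against 3.25, 3.31 and 3.04 in CBA/CaH and 3.73, 4.12 and 5.54 in QSi5, and rose by 2.55 (SE 0.69, adjusted p = 0.00811). On 3 AIL arrays (AC2, AC3 and AQ3) Tmem267 was between 3.50 and 4.26, and on the other 7 it was 5.94 or higher, above every QSi5 array. The CBA/CaH values lie near the bottom of the scale, so the size of this difference is uncertain.

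**Figure D2:**
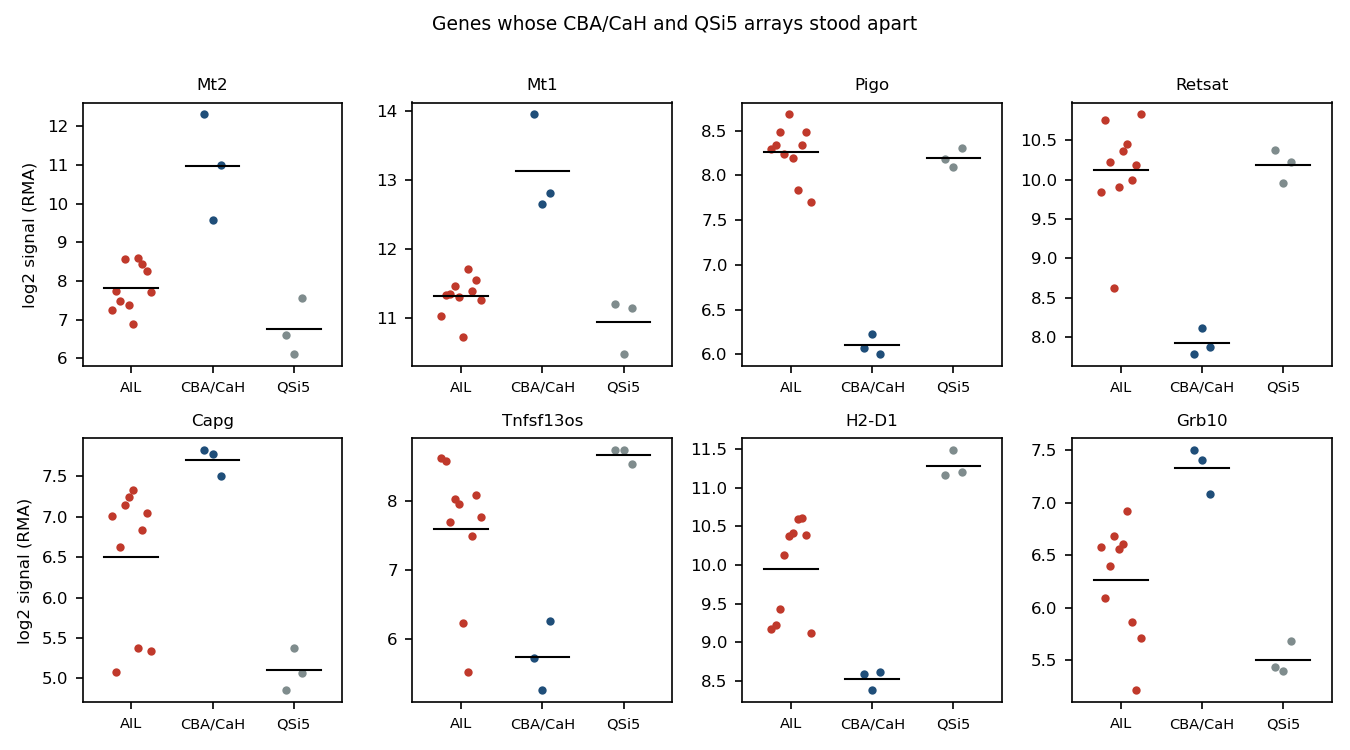
Log2 signal per array of 8 genes, with AIL left, CBA/CaH in the middle and QSi5 right; points are arrays, black lines group means, and the axes do not start at 0. Mt2, Mt1, Pigo and Retsat of AIL lie near the QSi5 arrays, while Capg, Tnfsf13os, H2-D1 and Grb10 of AIL spread between the parental levels.

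An on and off pattern was widest in probe sets with no single gene symbol, singled out after their values were seen. The probe set 1425470_at was 3.55 on 1 AIL array, with a median of 12.50 and a highest value of 12.64 over the 10 AIL arrays. The CBA/CaH arrays lay at 3.42 to 3.84 and the QSi5 arrays at 12.37 to 12.50. The CBA/CaH values lie near the bottom of the table (lowest value 2.34, array medians 5.13 to 5.27 in AIL and CBA/CaH), so no size is read from the difference. Of the AIL arrays, 1 lay nearer CBA/CaH. The probe set 1431214_at was 6.19 to 14.12 (median 13.74) in AIL, against 5.58 to 6.28 in CBA/CaH, while QSi5 lay at 7.63 to 8.61, so the AIL median lay above both parents. In all, 27 probe sets lay beyond the largest named differences, 8 of them with no single symbol and 19 a dimmer probe set of a gene.

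For some genes, picked after their values were seen, a dimmer probe set gave a far larger difference than the brightest one. A dimmer probe set of Btn1a1, the butyrophilin of the milk fat globule membrane, was 8.28 to 10.35 in AIL, against 3.76 to 5.17 in CBA/CaH, while QSi5 lay at 4.29 to 4.81, a difference of 4.79 whose size is uncertain because the inbred values lie near the low end of the scale. The brightest Btn1a1 probe set was 13.58 to 13.73 in AIL, against 13.27 to 13.44 in CBA/CaH, a difference of 0.32 (SE 0.08, adjusted p = 0.00447). Dimmer and brightest probe sets differed by 3.84 and 0.79 for Stat5a, by 4.36 and 0.03 for Slc39a8, a metal importer, and by 3.22 and 0.41 for Akt1, a kinase of insulin signalling. They differed by -3.58 and -0.14 for Phgdh and by 3.30 and 0.17 for Kif5b, with neither dimmer probe set called against QSi5. The larger difference did not hold for every dimmer probe set: the others of Akt1 differed by 0.23 and 0.18, and dimmer ones of Acss2, Atp2c1 and Pdia3 fell. Higher calls of at least 1 log2 unit were made for 5.14% of the dimmer probe sets, against 2.85% of the brightest. Of 5700 called genes with several probe sets, 674 had probe sets called in both directions. Where on each transcript the probe sets lie was not analysed here, and the part of the array difference in these values was not tested.

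Probe sets that differed between the parental strains at pregnancy were followed in the AIL. QSi5 minus CBA/CaH called 306 probe sets (0.679%) in the pregnant mice, 177 higher in QSi5 and 129 higher in CBA/CaH. AIL minus CBA/CaH was called in the same direction for 84 of them (27.5%), in the opposite direction for 14 (4.58%) and not called for 208. Of the 177 higher in QSi5, 55 were higher (31.1%) and 9 lower (5.08%) in AIL, against 14.9% and 17.9% of all probe sets, with a median AIL minus CBA/CaH difference of 0.28. Of the 129 higher in CBA/CaH, 29 were lower (22.5%, near the 17.9% of all probe sets) and 5 higher (3.88%) in AIL, with a median of -0.235. AIL was not called against QSi5 for 62 of the 84. With the Gapdh covariate 5 of the 306 probe sets were called in the same direction and 0 in the opposite direction. Of all 45037 probe sets, 822 were called with that covariate in either direction, a similar share.

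The genes with the largest parental differences among those called the same way were Tnfsf13os, Ccdc122, H2-D1, Fam168a, Trim14 and Abhd1. Fam168a was 6.74 to 7.96 (median 7.58) in AIL, against 6.67, 6.15 and 6.73 in CBA/CaH and 8.32, 8.53 and 8.64 in QSi5, and rose by 0.96 (SE 0.23, adjusted p = 0.00346). Trim14, an adaptor of antiviral signalling, was 5.94 to 7.75 (median 7.13) in AIL, against 6.13, 5.93 and 6.07 in CBA/CaH and 6.10, 6.43 and 6.35 in QSi5. Of the AIL arrays, 9 lay above every array of both parents, and it rose by 1.05 (SE 0.26, adjusted p = 0.00428). Abhd1 fell by 0.69, a call lost without the CBA/CaH array 1 or 3 (adjusted p = 0.0537 and 0.0649). Ccdc122 fell by 0.65, a call lost without any 1 of the 3 CBA/CaH arrays (adjusted p = 0.0718 to 0.191). Serpina1b, an antiprotease gene, went against its pregnancy difference of 1.17. It was 4.84 to 5.85 (median 5.45) in AIL, against 6.67, 6.33 and 6.70 in CBA/CaH and 6.78, 8.26 and 6.04 in QSi5, and fell by 1.19 (SE 0.30, adjusted p = 0.00515). Its AIL arrays lay below both parents. Near-identical copies exist among the Serpina1 genes, so their probe sets cannot be assigned with certainty.

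**Figure D3:**
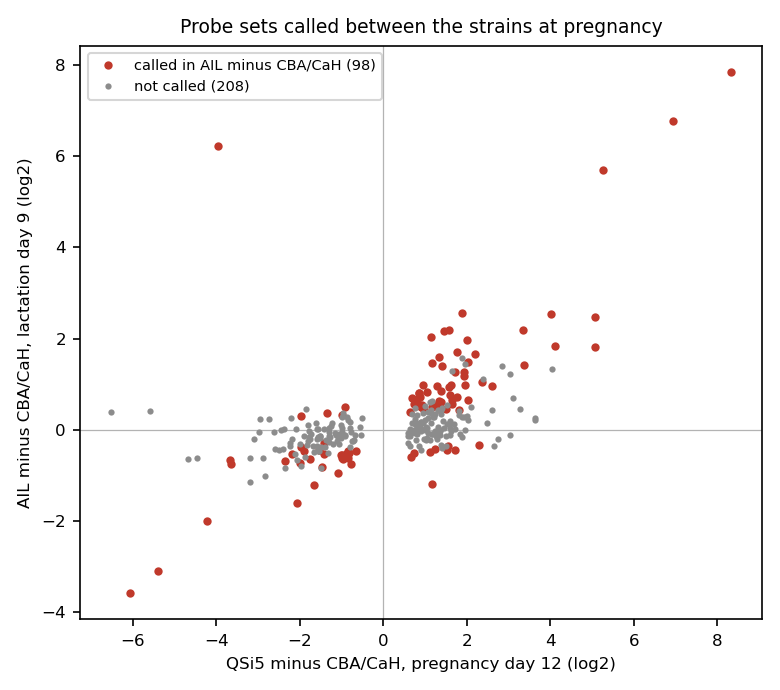
Each point is 1 of 306 probe sets called between the strains at pregnancy; the horizontal axis gives QSi5 minus CBA/CaH at pregnancy day 12 and the vertical axis AIL minus CBA/CaH at lactation day 9, both in log2. Red points were called in AIL minus CBA/CaH, 84 in the strain direction and 14 against it, and the 208 grey points were not called.

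A larger set of genes lay apart from both parents. Net1, an exchange factor for the GTPase RhoA, was 7.95 to 9.07 (median 8.31) in AIL, against 4.82, 5.74 and 5.23 in CBA/CaH and 6.06, 5.78 and 5.83 in QSi5. It rose by 3.14 (SE 0.20, adjusted p = 3.52e-09), the highest difference of all genes by their brightest probe set with no overlap. Lum, a proteoglycan of the collagen matrix, was 8.92 to 9.87 (median 9.39) in AIL, against 6.56, 6.99 and 6.60 in CBA/CaH and 7.42, 6.30 and 6.74 in QSi5, and rose by 2.68 (SE 0.21, adjusted p = 2.96e-08). Itgb1, the beta chain of many matrix receptors, was 8.89 to 9.31 (median 8.98) in AIL, against 7.34, 6.50 and 6.54 in CBA/CaH and 6.37, 6.28 and 7.12 in QSi5, and rose by 2.22 (SE 0.17, adjusted p = 1.9e-08). In these genes both inbred groups lay more than 1 log2 unit below every AIL array.

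Other genes among the highest differences had varied roles. Car2, a carbonic anhydrase, rose by 2.64 (SE 0.26) and was 1.19 above QSi5. Wls, which carries Wnt proteins to the surface, rose by 2.16 (SE 0.18), Senp2, a SUMO protease, by 2.14 (SE 0.13), Taf2, a subunit of the basal transcription machinery, by 2.18 (SE 0.24), Snap23, a membrane fusion protein, by 2.06 (SE 0.21) and Amy1, an amylase, by 2.05 (SE 0.35). Their adjusted p-values were 2.15e-09 to 0.000215, and each was also higher against QSi5. Ly6e, a surface protein, rose by 1.73 (SE 0.32), and Sgk1, a kinase of sodium transport, by 2.43 (SE 0.74, adjusted p = 0.0172). Sgk1 was 5.49, 9.46 and 7.98 on the CBA/CaH arrays, and without array 1 it was not called (1.36, adjusted p = 0.194).

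Among the genes lower than both parents, Shh encodes the signalling protein Sonic hedgehog. It was 6.11 to 6.75 (median 6.45) in AIL, against 8.01, 8.11 and 7.94 in CBA/CaH and 7.80, 7.29 and 7.66 in QSi5, and fell by 1.57 (SE 0.12, adjusted p = 3e-08). Malat1, a nuclear long noncoding RNA, was 10.43 to 11.96 (median 11.22) in AIL, against 13.22, 12.47 and 12.41 in CBA/CaH and 12.22, 13 and 12.74 in QSi5, and fell by 1.53 (SE 0.27, adjusted p = 0.000241). Pik3cd, a catalytic subunit of phosphoinositide 3-kinase, fell by 1.47 (SE 0.10, adjusted p = 8.2e-09) and was 1.31 below QSi5. The remaining genes named by size, Ccdc59, Map3k12, Serpina1c, Rap1gapos, Csdc2 and 2900026A02Rik, fell by 1.21 to 1.53 and were lower against QSi5 as well. Of these, 2900026A02Rik differed by -0.60 without the CBA/CaH array 1, which was 9.41 beside 7.44 and 7.76. With the Gapdh covariate, Net1, Lum, Itgb1, Senp2, Shh, Pik3cd, Csdc2 and Rap1gapos were still called. Wls, Taf2, Car2, Snap23, Amy1, Ly6e, Sgk1, Malat1, Ccdc59, Map3k12, Serpina1c and 2900026A02Rik were not called with it. Sizes varied over the 33 alternatives, which include other choices of a gene's probe set. The smallest differences were 0.88 for Itgb1, 0.96 for Senp2, -0.74 for Shh, -0.56 for Pik3cd and -0.25 for Csdc2.

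**Figure D4:**
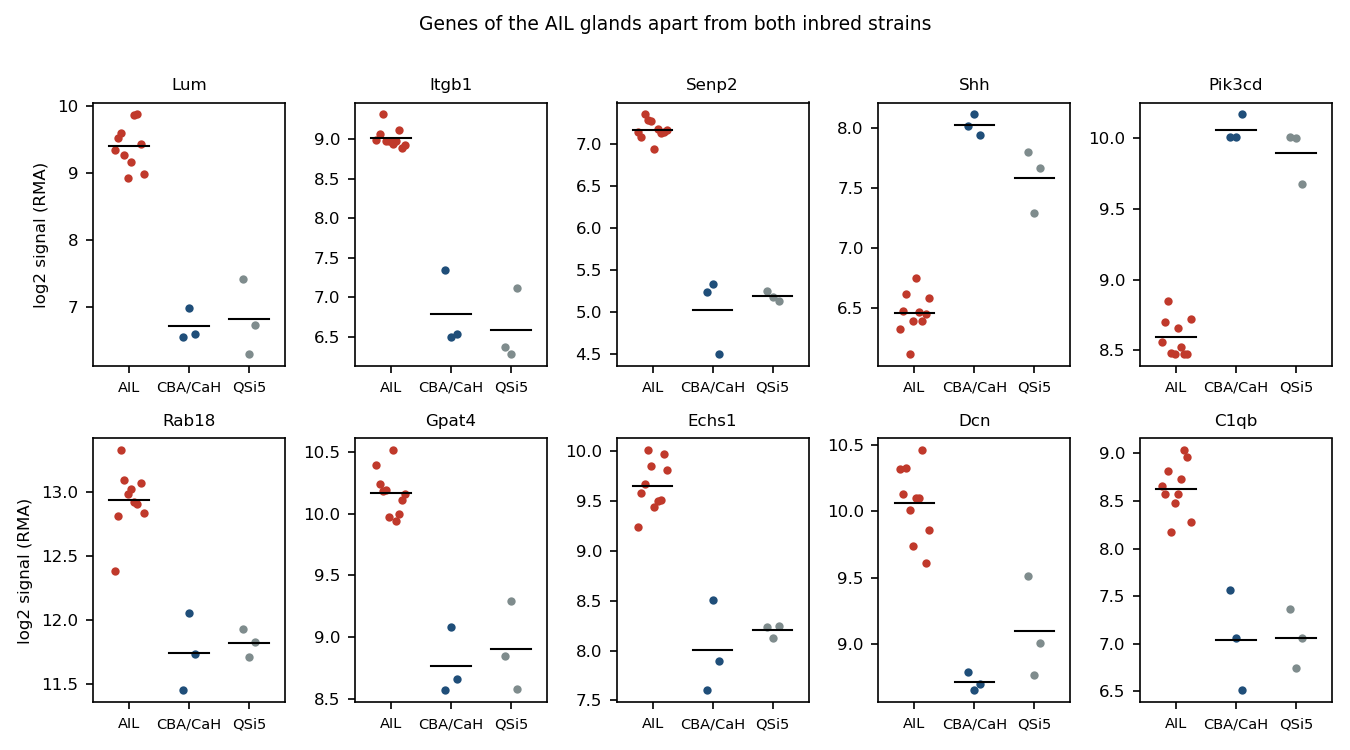
Log2 signal per array of 10 genes, with AIL left, CBA/CaH in the middle and QSi5 right; points are arrays, black lines group means, and the axes do not start at 0. The 10 AIL arrays lie on one side of the 3 CBA/CaH and the 3 QSi5 arrays in each panel, above them except for Shh and Pik3cd.

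Genes of milk fat, lactose and transport were more often called higher than lower in AIL, while milk proteins at the top of the range could not show a rise. The lists are read against 18.3% of all genes higher, 16.6% lower and a median difference of -0.03 over all genes. These shares include genes at low signal and were not matched by level to the lists. Among called probe sets the higher share was 60.5% without those of mean under 5, in place of 45.5%. With the Gapdh covariate, which takes up the line as well, no list had more than 2 members higher. The higher members went from 17 to 0 for fatty acid and triglyceride synthesis and from 9 to 1 for lactose synthesis and glucose use. They went from 11 to 2 for respiration, from 10 to 0 for white adipocytes and from 7 to 1 for interferon response. Macrophage and fatty acid oxidation genes each went from 7 to 0. Of 13 milk protein genes measured, 3 were higher and none lower (median 0.06). Muc15, a mucin of the globule membrane, was 12.59 to 13.05 (median 12.77) in AIL, against 11.93, 12.17 and 12.02 in CBA/CaH and 12.44, 12.31 and 12.52 in QSi5, and rose by 0.75 (SE 0.11, adjusted p = 4.5e-05). Cel, a bile salt-stimulated lipase of milk, rose by 0.60 (SE 0.11) and Lpo, an antimicrobial peroxidase, by 0.71 (SE 0.15). Lalba, the regulatory subunit of lactose synthase, was 13.87 to 14.69 (median 14.59) in AIL, against 14.41, 14.45 and 14.38 in CBA/CaH and 14.75, 14.67 and 14.73 in QSi5 (difference from CBA/CaH 0.12, SE 0.13, adjusted p = 0.512). Csn1s1, Csn2, Csn3 and Wap differed by -0.05 to 0.06 at the top of the range, which does not test whether they changed.

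Of 10 genes of milk fat globule secretion, 5 were higher and none lower (median 0.20). Rab18, a GTPase of the lipid droplet surface, was 12.38 to 13.32 (median 12.95) in AIL, against 11.45, 12.05 and 11.73 in CBA/CaH and 11.93, 11.71 and 11.83 in QSi5, and rose by 1.19 (SE 0.15, adjusted p = 9.15e-06). Cd36, a fatty acid translocase, rose by 0.76 (SE 0.09, adjusted p = 2.72e-06). Plin2, the main droplet coat protein, was 12.94 to 13.40 (median 13.11) in AIL, against 13.56, 12.81 and 12.95 in CBA/CaH and 12.78, 12.95 and 12.78 in QSi5. It differed from CBA/CaH by 0.02 (SE 0.13, adjusted p = 0.938), or by 0.24 without array 1 and -0.13 without array 2.

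Of 27 genes of fatty acid and triglyceride synthesis, 17 were higher and none lower (median 0.70). Without the CBA/CaH array 1 the count was 9 higher. Gpat4, the acyltransferase that starts milk triglyceride, was 9.94 to 10.51 (median 10.17) in AIL, against 8.57, 9.08 and 8.66 in CBA/CaH and 8.85, 9.29 and 8.58 in QSi5, and rose by 1.40 (SE 0.15, adjusted p = 9.95e-07). Acss2, which makes acetyl-CoA from acetate, rose by 1.45 (SE 0.20, adjusted p = 2.83e-05), and Dgat2, an enzyme of the last step, by 1.51 (SE 0.27, adjusted p = 0.000343). A dimmer probe set of Acss2 fell by 0.44. Fasn, the fatty acid synthase, was 12.94 to 13.88 (median 13.34) in AIL, against 11.85, 12.88 and 12.98 in CBA/CaH and 12.82, 12.67 and 12.80 in QSi5. It rose by 0.76 (SE 0.20, adjusted p = 0.00675), a call that rested on array 1 (0.40 without it, adjusted p = 0.104). Srebf1, a transcription factor of lipid synthesis, differed by 0.33 (SE 0.35, adjusted p = 0.494), or by -0.32 without array 1. Thrsp, a lipogenic nuclear protein, differed by 0.46 (adjusted p = 0.0735). Without array 1 it differed by 0.03, and it was called without array 2 or 3 (0.69 and 0.66, adjusted p = 0.021 and 0.035). Olah, the thioesterase of medium-chain milk fatty acids, differed by -0.14 (adjusted p = 0.403). Of 17 cholesterol synthesis genes, 6 were higher and 1 lower (median 0.23), with Msmo1, a sterol oxidase, at 1.44 (SE 0.24, adjusted p = 0.000181).

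Of 12 genes of lactose synthesis and glucose use, 9 were higher and none lower (median 0.64). Ugp2, which makes UDP-glucose, was 10.65 to 11.45 (median 11.24) in AIL, against 10.17, 10.21 and 9.67 in CBA/CaH and 10.02, 9.72 and 10.11 in QSi5, and rose by 1.16 (SE 0.15, adjusted p = 1.69e-05). Pgd, an enzyme of the pentose phosphate pathway, rose by 0.96 (SE 0.19). B4galt1, the catalytic subunit of lactose synthase, rose by 0.89 (SE 0.18, adjusted p = 0.00103), or by 0.53 without the CBA/CaH array 2. Hk2, a hexokinase, rose by 0.92 (SE 0.20, adjusted p = 0.00179), or by 0.58 without array 1.

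Of 19 transporters, 9 were higher and 1 lower (median 0.39). The lower one was the amino acid carrier Slc7a5. Atp2c1, the calcium and manganese pump of the Golgi, was 9.72 to 10.55 (median 10.09) in AIL, against 9.16, 9.02 and 9.03 in CBA/CaH and 9.28, 9.05 and 9.28 in QSi5, and rose by 1.07 (SE 0.15, adjusted p = 2.55e-05), although a dimmer probe set fell by 0.37. Atp2b2, the apical pump that puts calcium into milk, was 10.77 to 11.48 (median 11.13) in AIL, against 9.07, 10.28 and 10.55 in CBA/CaH and 10.64, 10.41 and 10.93 in QSi5. It rose by 1.15 (SE 0.22, adjusted p = 0.000707), or by 0.70 without array 1. Slc7a5 fell by 0.82 (SE 0.22, adjusted p = 0.00764), which was not called without array 1 (-0.66, adjusted p = 0.0586).

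Of 13 genes of prolactin and STAT5 signalling, 2 were higher and 1 lower (median 0.11), near the shares of all genes. The counts without 1 of the CBA/CaH arrays were 1 to 3 higher and 1 to 2 lower. Stat5a was 9.83 to 10.60 (median 10.04) in AIL, against 8.74, 9.83 and 9.54 in CBA/CaH and 9.75, 9.40 and 9.83 in QSi5, and rose by 0.79 (SE 0.19, adjusted p = 0.0035; 0.47 without array 1, adjusted p = 0.0544). Stat5b rose by 0.70 (SE 0.16, adjusted p = 0.00314). Socs3, a feedback inhibitor of cytokine signalling, was 5.92 to 6.76 (median 6.23) in AIL, against 8.09, 7.0 and 6.55 in CBA/CaH and 6.85, 6.75 and 6.45 in QSi5, and fell by 0.95 (SE 0.22, adjusted p = 0.00263), or by 0.51 without array 1. The Socs3 call was lost with the mean of its probe sets and with its most variable probe set. Elf5, the transcription factor of alveolar cells, differed by 0.32 (adjusted p = 0.0529). It was 0.15 without array 1, was called without array 3 (0.50, adjusted p = 0.00738), and was called under 8 of 33 alternatives. Socs2, another feedback inhibitor, differed by 0.57 (adjusted p = 0.131).

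Of 16 genes of endoplasmic reticulum folding, 5 were higher and none lower (median 0.10), with 3 higher without the CBA/CaH array 3. With cyclic loess, another normalization, 3 were higher and 5 lower. Canx, a lectin chaperone of glycoproteins, rose by 1.21 (SE 0.13, adjusted p = 9.83e-07) and Pdia3, its disulphide isomerase partner, by 1.26 (SE 0.22, adjusted p = 0.000215), while a dimmer probe set of Pdia3 fell by 0.47. Of 12 genes of translation and the amino acid response, 4 were higher and 2 lower (median 0.03), with 2 higher without the CBA/CaH array 1. With cyclic loess 1 was higher and 5 lower. Psat1, an enzyme of serine synthesis, was 7.78 to 8.60 (median 8.04) in AIL, against 5.21, 7.26 and 6.21 in CBA/CaH and 7.07, 6.66 and 7.54 in QSi5, and rose by 1.88 (SE 0.27, adjusted p = 4.62e-05). Eif4ebp1, a brake on cap-dependent translation, fell by 0.82 (SE 0.11, adjusted p = 1.79e-05). Chac1, a glutathione-degrading enzyme of the stress response, fell by 0.86 (SE 0.22) and differed from QSi5 by 0.05.

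Mitochondrial genes were mostly higher in AIL where they were called. Of 18 genes of respiration, 11 were higher and none lower (median 0.41), and of 14 genes of fatty acid oxidation 7 were higher and none lower (median 0.37). Echs1, the enoyl-CoA hydratase, was 9.24 to 10.01 (median 9.63) in AIL, against 7.60, 8.51 and 7.90 in CBA/CaH and 8.24, 8.13 and 8.25 in QSi5, and rose by 1.66 (SE 0.17, adjusted p = 6.95e-07). Atp5a1, a subunit of ATP synthase, rose by 1.28 (SE 0.09, adjusted p = 5.74e-09), Sdha, of succinate dehydrogenase, by 1.15 (SE 0.12) and Idh3a, of the citric acid cycle, by 1.71 (SE 0.21). Dimmer probe sets of these 3 genes fell, by 0.51, 0.48 and 0.77. Of 12 ribosomal protein genes, 4 were higher and none lower (median 0.13), and without the CBA/CaH array 2 or 3 the count was 2 or 1. With cyclic loess none was higher and 1 was lower.

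Connective tissue and fat cell genes had the highest medians of the 35 lists. In whole tissue, fewer cells of a type and less RNA per cell cannot be told apart. Of 17 fibroblast and matrix genes measured, 13 were higher and none lower (median 0.89). Their mean level was 8.17 to 8.96 (median 8.68) on the AIL arrays, against 7.59 to 7.66 on the CBA/CaH arrays. It was 8.67 to 8.96 on the AIL arrays numbered 1 to 3 and 8.17 to 8.34 on those numbered 4 and 5. The first set alone gave 14 higher and none lower, and the second 9 higher and 1 lower. Dcn, a small matrix proteoglycan, was 9.61 to 10.46 (median 10.10) in AIL, against 8.79, 8.65 and 8.70 in CBA/CaH and 9.51, 8.77 and 9.01 in QSi5, and rose by 1.35 (SE 0.16, adjusted p = 5.9e-06). Col1a1 and Col1a2, the chains of type I collagen, rose by 1.57 (SE 0.21) and by 1.62 (SE 0.22), while a dimmer probe set of Col1a2 fell by 0.36. With the Gapdh covariate 2 of the 17 were higher.

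Of 11 white adipocyte genes, 10 were higher and none lower (median 0.97), 7 without the CBA/CaH array 3. From the AIL arrays numbered 1 to 3 alone 10 were higher, and from those numbered 4 and 5 alone 6. Cidec, a protein of large fat droplets, was 6.70 to 8.78 (median 7.60) in AIL, against 5.61, 6.15 and 5.08 in CBA/CaH and 5.97, 5.15 and 6.39 in QSi5, and rose by 1.97 (SE 0.32, adjusted p = 0.000141). Retn, the hormone resistin, rose by 1.49 (SE 0.23) and Adipoq, the hormone adiponectin, by 1.39 (SE 0.32, adjusted p = 0.00262). The Adipoq ranges overlapped at 9.63 to 11.32 in AIL, against 8.59, 10.18 and 8.66 in CBA/CaH, while QSi5 lay at 9.51, 8.65 and 9.43. Lep, leptin, was the member not called (0.29, SE 0.24, adjusted p = 0.373). Of 11 endothelial genes, 5 were higher and none lower (median 0.56), with 1 to 3 higher without any 1 of the CBA/CaH arrays. All 11 were higher from the AIL arrays numbered 1 to 3 and 1 from those numbered 4 and 5. The list's mean level was 6.88 to 7.10 on the first set and 6.12 to 6.34 on the second, against 6.05 to 6.13 on the CBA/CaH arrays, so the result was not one of all AIL arrays. Pecam1, an adhesion protein of endothelial junctions, was 7.21 to 7.41 on the AIL arrays numbered 1 to 3 and 6.05 to 6.54 on those numbered 4 and 5, against 5.65, 5.41 and 5.55 in CBA/CaH and 6.14, 5.79 and 5.30 in QSi5, and rose by 1.36 (SE 0.26, adjusted p = 0.000595).

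No skeletal muscle gene of 14 was called, and the array AC1 alone carried their signal, with a mean level of 9.46 against a median of 5.02 over the AIL arrays. Of 13 luminal cell genes, 5 were higher and 3 lower (median -0.01), with 3 higher without the CBA/CaH array 2 or 3. Esr1, the oestrogen receptor, was 9.45 to 10.23 (median 9.76) in AIL, against 8.53, 9.08 and 9.33 in CBA/CaH and 9.45, 9.40 and 9.66 in QSi5, and rose by 0.87 (SE 0.16, adjusted p = 0.000433). Gata3, a luminal transcription factor, rose by 0.67 (SE 0.13, adjusted p = 0.000849). Kit, a receptor of luminal progenitors, was 4.40 to 5.57 (median 4.73) in AIL, against 7.08, 5.69 and 5.44 in CBA/CaH and 5.26, 4.87 and 5.22 in QSi5, and fell by 1.21 (SE 0.26, adjusted p = 0.00183), or by 0.70 without array 1. Of 11 myoepithelial genes, 2 were higher and none lower (median 0.18; 4, 1 and 1 higher without the CBA/CaH arrays 1, 2 and 3), and Oxtr, the oxytocin receptor, was among the genes called (0.43, SE 0.11, adjusted p = 0.00738). Of 11 tight junction genes, 4 were higher and 2 lower (median 0.29; none lower without the CBA/CaH array 1), led by Tjp1, a junction scaffold (1.14, SE 0.15), and Cldn8, a claudin (1.08, SE 0.16). Cldn4, another claudin, fell by 1.00 (SE 0.29, adjusted p = 0.0121), a call lost without array 1 (-0.40, adjusted p = 0.191).

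**Figure D5:**
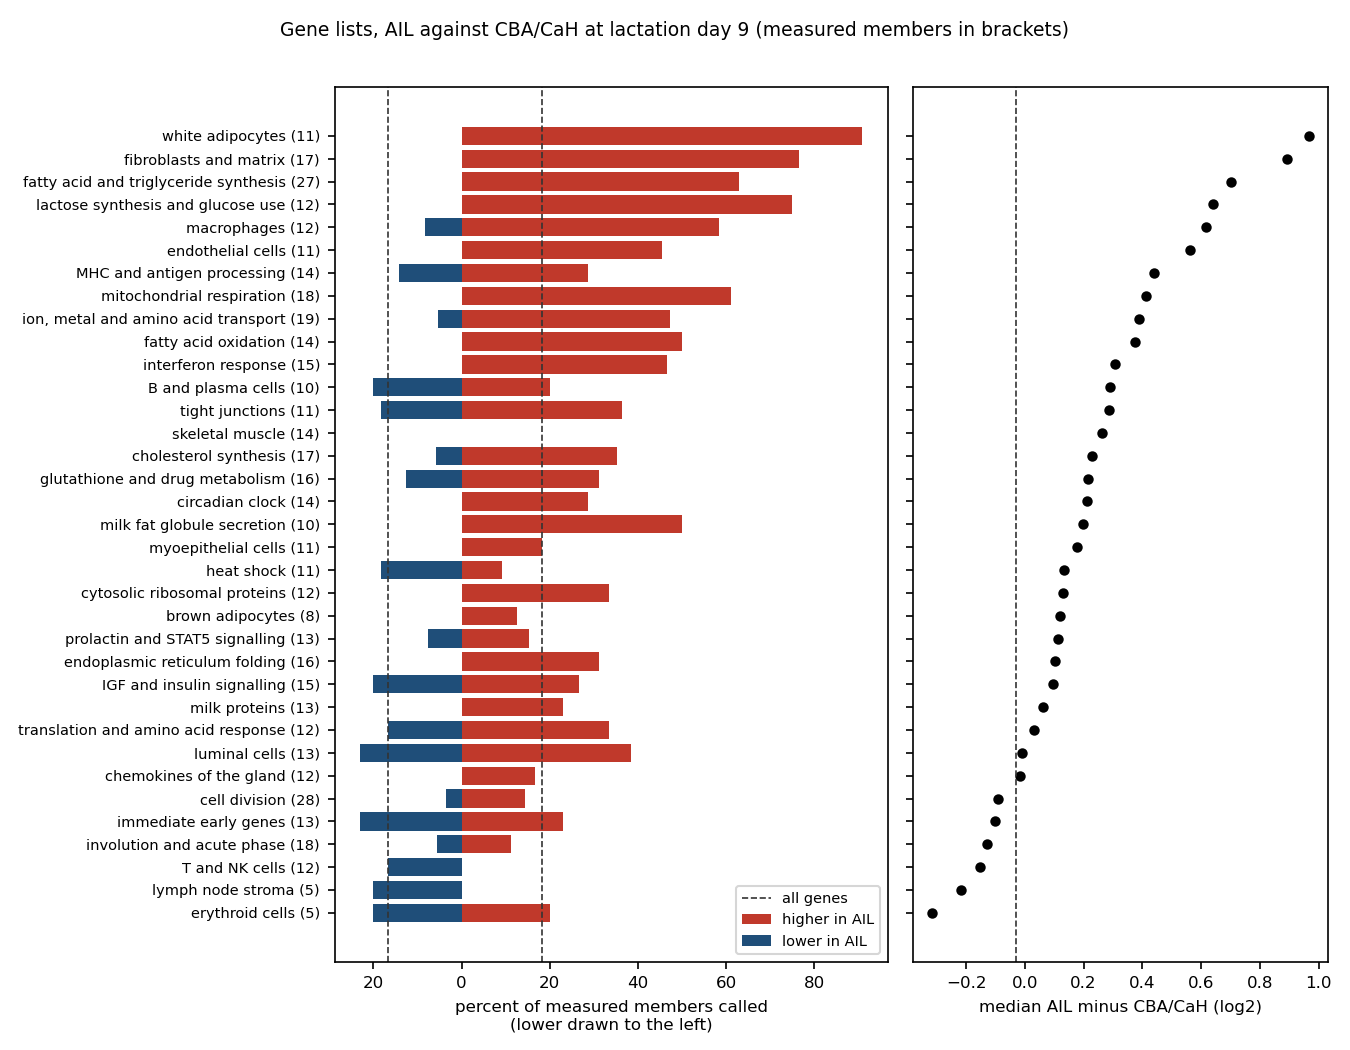
The 35 gene lists ordered by median difference, with measured members in brackets. Left, the percent of measured members called higher (red, drawn to the right) or lower (blue, drawn to the left) in AIL, with dashed lines at the shares of all genes (18.3% and 16.6%); right, the median AIL minus CBA/CaH difference in log2, with a dashed line at the median of all genes. White adipocyte and fibroblast lists have the highest medians.

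Immune genes moved in both directions. Of 12 macrophage genes, 7 were higher and 1 lower (median 0.62). C1qb, a second chain of C1q, was 8.17 to 9.03 (median 8.62) in AIL, against 7.56, 7.06 and 6.51 in CBA/CaH and 7.36, 6.75 and 7.06 in QSi5, and rose by 1.59 (SE 0.19, adjusted p = 6.4e-06). Lyz2, the lysozyme of myeloid cells, rose by 1.44 (SE 0.36, adjusted p = 0.00501). All 10 AIL arrays lay within the QSi5 range of Lyz2, 7.54 to 10.40. Cd14, a receptor for bacterial lipopolysaccharide, was 9.71 to 10.78 (median 9.91) in AIL and differed by -0.26 (adjusted p = 0.701), or by 0.85 without array 1 (adjusted p = 0.0248).

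Jchain joins the polymeric IgA that plasma cells of the gland pass into milk. It was 10.11 to 12.41 (median 11.64) in AIL, against 10.91, 8.91 and 8.42 in CBA/CaH and 11.16, 10.20 and 10.56 in QSi5, and rose by 2.13 (SE 0.44, adjusted p = 0.00109). The AIL range overlapped the CBA/CaH array 1, and AIL was not called against QSi5 (0.91, adjusted p = 0.111). Ccl28, a chemokine that draws IgA plasma cells, was 10.41 to 11.99 (median 11.15) in AIL, against 10.12, 10.29 and 10.38 in CBA/CaH and 10.16, 10.29 and 10.37 in QSi5, and rose by 0.94 (SE 0.23, adjusted p = 0.0042). Of 10 B and plasma cell genes 2 were higher and 2 lower (median 0.29), with 1 higher without the CBA/CaH array 2. The lower 2 were the B cell genes Blk, a kinase (-0.99, SE 0.15, adjusted p = 5.88e-05), and Cd22, a lectin of the B cell surface (-0.71, SE 0.18, adjusted p = 0.00499). Blk was 4.07 to 4.36 in AIL, near the bottom of the scale, so the size of its fall is uncertain. Of 12 T and NK cell genes none was higher and 2 were lower (median -0.15), near the share of all genes, and none or 1 was lower without 1 of the CBA/CaH arrays. Cxcl13, a chemokine of B cell follicles, fell by 0.68 (SE 0.16, adjusted p = 0.00373). This call was lost with the mean of the gene's probe sets and with its most variable probe set.

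Of 15 interferon response genes, 7 were higher and none lower (median 0.31), 4 without the CBA/CaH array 1. Beside Iigp1 these included Bst2, a tether of budding virus (0.71, SE 0.16, adjusted p = 0.0019), and Gbp2, a guanylate-binding protein (0.58, SE 0.13, adjusted p = 0.00217). Of 14 genes of antigen presentation, 4 were higher and 2 lower (median 0.44), with 2 higher and 1 lower without the CBA/CaH array 3. Tap2, the peptide transporter, rose by 0.72 (SE 0.12, adjusted p = 0.000202). H2-DMa, which loads peptides on class II molecules, fell by 0.81 (SE 0.17, adjusted p = 0.00107), while another of its probe sets rose by 0.62.

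Genes of involution, the regression that follows weaning, were not called as a rule. Of 18 measured, 2 were higher and 1 lower (median -0.13). Without the CBA/CaH array 1 the counts were 8 higher and 1 lower, and without array 2 or 3 none was higher. Saa3, an acute phase protein, was 6.16 to 10.72 (median 7.48) in AIL, against 11.18, 9.04 and 8.93 in CBA/CaH and 6.93, 6.08 and 6.42 in QSi5 (difference -1.86, SE 0.71, adjusted p = 0.0516). It was -1.12 without array 1 (adjusted p = 0.311) and was called under 9 of 33 alternatives. Igfbp5, which blocks insulin-like growth factor signals during involution, differed by -0.60 (adjusted p = 0.501), or by 0.64 without array 1 and -1.46 without array 2, so its sign turned on 1 array. Stat3, the factor that starts involution, differed by 0.28 (adjusted p = 0.521). Without array 1 Stat3 was called, at 1.08 (adjusted p = 3.26e-05).

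Of 15 genes of insulin and insulin-like growth factor signalling, 4 were higher and 3 lower (median 0.10). Irs1, the docking protein of the insulin receptor, was 10.15 to 10.74 (median 10.58) in AIL, against 9.33, 9.93 and 9.68 in CBA/CaH and 9.67, 9.36 and 9.72 in QSi5, and rose by 0.90 (SE 0.13, adjusted p = 3.66e-05). Akt2, a kinase downstream of it, rose by 0.64 (SE 0.11) and Igfbp4, a binding protein of the growth factor, by 1.15 (SE 0.22, adjusted p = 0.000592). Of 28 cell division genes 4 were higher and 1 lower (median -0.09), with 2 higher without the CBA/CaH array 3. Mki67, a marker of cycling cells, rose by 1.04 (SE 0.21, adjusted p = 0.00104), while Tpx2, a spindle protein, fell by 0.71 (SE 0.12, adjusted p = 0.000229). Of 13 immediate early genes 3 were higher and 3 lower (median -0.10; none lower without the CBA/CaH array 2), with Dusp1, a phosphatase of stress kinases, at 6.65 to 8.88 (median 7.05) in AIL, against 5.84, 5.62 and 5.32 in CBA/CaH and 4.96, 4.78 and 4.52 in QSi5 (1.64, SE 0.31, adjusted p = 0.000466). The circadian gene Clock rose by 0.99 (SE 0.21, adjusted p = 0.00125). Of 14 clock genes 4 were higher and none lower (median 0.21), with 1 higher without the CBA/CaH array 1 or 3. Of 16 genes of glutathione and drug metabolism 5 were higher and 2 lower (median 0.21), led by Ces1d, a carboxylesterase of fat cells (1.55, SE 0.25, adjusted p = 0.000136), and Gsta3, a glutathione transferase (1.30, SE 0.26, adjusted p = 0.000849). Of 11 heat shock genes 1 was higher and 2 lower, of 8 brown adipocyte genes 1 higher, of 5 erythroid genes 1 higher and 1 lower, of 5 lymph node stroma genes 1 lower and of 12 chemokines of the gland 2 higher. These 5 lists had medians of -0.32 to 0.13.

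The 10 AIL arrays were not uniform among themselves. AQ minus AC within the AIL gave 0 called probe sets in limma, and 1685 had an unadjusted p under 0.05 (3.74%). The second principal component of the lactation arrays (8.72% of the variance) had the AIL arrays numbered 1 to 3 on one side and those numbered 4 and 5 on the other, in both codes. Against CBA/CaH, the arrays numbered 1 to 3 gave 6181 higher and 6515 lower probe sets, and those numbered 4 and 5 gave 5891 and 5607.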

How the data were processed

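Inguinal mammary gland RNA was measured on Affymetrix mouse arrays. The authors deposited log2 signals for each probe set, computed with RMA, as the submitters' processing notes record. Its version, the probe annotation and whether all arrays were normalized together are not given in the sources used here. Gene names came from the platform annotation: 34945 of 45037 probe sets had 1 symbol, 932 several and 9160 none, and 64 control probe sets were left out. Each gene took the values of its brightest probe set (mean of 26 arrays).

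Groups came from the sample labels. limma 3.58.1 in R 4.3.3 (lmFit and eBayes) was fitted to the 16 lactation arrays with 3 groups, and to the 10 pregnancy arrays for the strain difference. P-values were adjusted by the Benjamini-Hochberg method across the whole table, with 0.05 as the limit for a call. The labels do not say that the mice came from separate litters, so p-values measure the spread between these arrays, and the 3 CBA/CaH arrays limit the precision. On simulated data for this comparison (45037 probe sets) 100 probe sets were changed by 1 log2 unit and 100 by 0.5. Of these, 91% and 36% were called, with 9 false calls. The simulated noise was independent between probe sets and held no difference between sets of arrays. The 9 is therefore not a count of false calls in the real comparison.

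Named genes were the 12 highest and 12 lowest called genes without overlap, the 6 highest and 6 lowest by distance from the parental mean, as many as 4 called and 2 uncalled members from each of 35 lists, preset mammary genes, and 6 genes along and up to 4 against the pregnancy strain difference; only some of them are printed. Of 518 list members 479 were measured. The members and lists were chosen with earlier results of these data known. Figures were drawn with Python 3.11.15 and matplotlib 3.10.9. Alternatives changed the normalization, the filter, the arrays, the weights and the covariates.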

Additional observations from a re-analysis of the deposited data

Results flagged for a closer look

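For 13 of the 120 genes printed and checked, 1 AIL array lay apart from the other 9 by more than Dixon's critical value for 10 arrays, which chance alone passes in about 1 of 20 groups. AC3 was the array apart for 7 of the 13. It was lowest for Csn1s1 at 14.61 (the others 14.66 to 14.71), for Csn2 at 14.76 (14.82 to 14.87) and for B4galt1 at 10.74 (11.18 to 11.55). It was highest for Lpo at 10.21 (9.33 to 9.80), Idh3a at 10.49 (9.36 to 9.81), Sdha at 10.44 (9.93 to 10.15) and Tap2 at 8.74 (8.0 to 8.38). The mean of the bioB, bioC, bioD and cre control probe sets was 10.10 on AC3, against 11.12 to 11.31 on the other AIL arrays. Whether this bears on the 7 genes was not tested. AC1 was highest for Tnnc2 at 11.80 (4.07 to 4.70) and for Dusp1 at 8.88 (6.65 to 7.60). AC4 was lowest for Retsat at 8.62 (9.85 to 10.83) and AQ2 for Trim14 at 5.94 (6.79 to 7.75). AQ4 was lowest for Lalba at 13.87 (14.52 to 14.69) and AQ1 for Btn1a1 at 13.58 (13.66 to 13.73).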

How the results depend on the processing

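Control values of labelling separate AIL from both inbred groups, so a covariate for them takes up the line as well. With the Gapdh covariate 822 probe sets were called (557 higher, 265 lower), against 14747 (6707 and 8040), with 1201 against the mean of the parents, 5 in and 0 against the strain direction, and Adipoq at -0.24. With the poly-A covariate, chosen after seeing the data, these were 210 (50 and 160), 128, 0 and 0. Of 103 called genes printed, 17 were called with the Gapdh covariate and 7 with the poly-A covariate. With the Gapdh covariate 102 of the 103 kept their sign. With the poly-A covariate 11 had the opposite sign, and 0 of these were called. Without probe sets of mean under 5, 4056 were lower, 13343 were called against the mean of the parents and 9 against the strain direction. With equal array medians 4829 were lower and 9 went against the strain direction. From AQ arrays alone these were 4968 and 8. At 1 log2 unit or more 1619 were called (1496 higher, 123 lower), 1520 against the mean of the parents, 29 in and 2 against the strain direction. Calls against the strain direction numbered 6 with all 26 arrays, 8 with array weights, 7 with separate variances and 9 without 3 pregnancy arrays that stood apart, in place of 14. Leaving out 1 array gave 5010 to 7865 lower calls and 5 to 15 against the strain direction, the lowest without CBA/CaH array 3. Cd14 was 0.85 without CBA/CaH array 1 and -1.07 without array 2. The cause of these changes was not tested.

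With the replicate number as a block, 5962 probe sets were called (3820 higher, 2142 lower), 9041 against the mean of the parents and 5 against the strain direction. Deviations of same-numbered arrays had correlations of 0.0135, 0.0066 and -0.046, so the arrays share only a number.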
